A study of Mus musculus with 4 samples.

Results

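The stefin A cluster is a row of small, closely related genes on mouse chromosome 16, and 9 of the 23946 genes measured were taken as its members: *Stfa1*, *Stfa2*, *Stfa3*, *Stfa2l1*, *BC100530*, *BC117090*, *Gm5483*, *Gm5416* and *2010005H15Rik*. They were chosen by name, because *Stfa1* and its neighbours had been seen to be highest in wild-type parietal bone, so their high level in that library is what selected them and is given here as a description. All 9 were present and above 0 in every library. Frontal and parietal bones of the skull vault were taken from wild-type and *Twist1*+/- mice on a C57BL/6J background at postnatal day 21, and their RNA was sequenced as 4 libraries, 1 per bone in either genotype. The *Twist1*+/- animals carried a single functional copy of *Twist1*, a basic helix-loop-helix transcription factor, in all cells and came from a commercial colony. Total RNA was taken from 12 mice of each strain, and the sources used here do not say how the animals were combined in a library. The whole bones included pericranium, bone plate and dura mater, so each library holds RNA of osteoblasts, osteoclasts, marrow cells and soft tissue together. There are no replicates, so no difference below has a spread to be read against, and no p-value is given.

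Stefins are the small cytosolic members of the cystatin family, which bind the active site cleft of papain-like cysteine proteases such as cathepsins L, S and H and block them reversibly. Humans have a single stefin A gene, whereas in the mouse the gene has been duplicated repeatedly, giving copies that are very similar to each other. In mice these transcripts are best known from neutrophils and their precursors, and stefin A is also found in the epidermis.

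Expression was given as FPKM, a fragment count divided by transcript length and scaled for sequencing depth, which allows levels of different genes to be compared per length. In frontal bone *Twist1* stood at 59.0 FPKM in the wild type and 30.4 FPKM in *Twist1*+/- mice. In parietal bone it stood at 52.5 FPKM in the wild type and 50.7 FPKM in the library labelled *Twist1*+/-, so *Twist1* did not set that library apart from the wild type and it is called by its label throughout. Genes above 0 numbered between 18063 and 19452 per library. FPKM values do not give the depth of a library. From genes at very low levels, 1 read was worth 1.28 times as many FPKM in *Twist1*+/- frontal as in wild-type frontal bone, 1.32 times as many in wild-type parietal as in *Twist1*+/- frontal bone, and 0.979 times as many in the parietal library labelled *Twist1*+/- as in that of the wild type.

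Of the 9 members, 8 were placed on the mm9 genome by the GENCODE M1 annotation, and *BC117090* was not. They lay on chromosome 16 between 36156897 and 36455478, a stretch of 298.6 kb, each with 3 exons. *Stfa2l1*, *Gm5483*, *Gm5416*, *2010005H15Rik* and *Stfa1* followed each other on the plus strand, and *BC100530*, *Stfa2* and *Stfa3* on the minus strand. A pair of other coding genes inside the stretch, *Gm1975* and *Gm4758*, were not measured. The coding sequences of the 8 members were between 77.9% and 98.1% identical to each other (median 81.9% of 28 pairs). They formed 3 close pairs, *Stfa2* with *Stfa2l1* (98.1%), *Stfa1* with *BC100530* (98.0%) and *Gm5483* with *2010005H15Rik* (96.9%).

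The coding bases around the hairpin loop that cystatins wedge into the protease are shown because they let the copies be compared and show how closely the pairs match. They are 60 bases of each coding sequence, with the 15 bases that encode the loop in capitals, taken from GENCODE M1, 5′ to 3′.
Stfa1: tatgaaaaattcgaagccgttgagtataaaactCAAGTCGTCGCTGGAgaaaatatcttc
BC100530: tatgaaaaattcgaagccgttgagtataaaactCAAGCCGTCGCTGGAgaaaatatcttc
Gm5416: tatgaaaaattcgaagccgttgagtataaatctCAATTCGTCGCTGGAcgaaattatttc
Stfa3: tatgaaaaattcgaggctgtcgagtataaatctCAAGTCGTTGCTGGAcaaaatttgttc
Gm5483 and 2010005H15Rik: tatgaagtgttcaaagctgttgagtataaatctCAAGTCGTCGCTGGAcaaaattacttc
Stfa2 and Stfa2l1: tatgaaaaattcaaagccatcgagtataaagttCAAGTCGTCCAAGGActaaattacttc
Against *Stfa1*, the 60 bases differed at 1 position in *BC100530*, 7 in *Gm5416*, 8 in *Stfa3*, 9 in *Gm5483* and *2010005H15Rik*, and 12 in *Stfa2* and *Stfa2l1*. The members of each of the latter pairs were identical over this stretch.

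Such likeness bears on the measurement, since a read that matches more than 1 copy cannot be assigned to either with certainty, and the sources used here do not say how the authors treated such reads. In windows of 75 bases, the length of the reads, *Stfa1* shared 15.9% of its windows with *BC100530*. *Gm5483* shared 22.1% of its windows with *2010005H15Rik*, which shared 27.5% of its own in return. *Stfa2* and *Stfa2l1* shared 5.79% and 7.94% with each other, and *BC100530* shared 22.4% with *Stfa1* or *Gm1975*. Only exact matches were counted, and *BC117090*, which has no annotated transcript here, was not compared. *Stfa3* and *Gm5416* shared none with any other annotated coding transcript. The levels of paired members are therefore uncertain relative to each other, and the sum over all 9 is given beside them.

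*Stfa1*, the highest member in wild-type parietal bone, read 47.8 FPKM in the frontal and 703.9 FPKM in the parietal bone of the wild type, and 103.7 and 63.6 FPKM in the frontal and parietal libraries labelled *Twist1*+/-. *BC100530*, its closest copy, read 50.7 and 635.4 FPKM in the same bones of the wild type and 151.6 and 68.2 FPKM in those of *Twist1*+/- mice. In both genes wild-type parietal bone was highest, *Twist1*+/- frontal bone came next, and the other libraries were lower and close to each other. *Stfa2* read 30.3 and 399.2 FPKM in the frontal and parietal bone of the wild type, and 146.0 and 59.1 FPKM in those of *Twist1*+/- mice. Its copy *Stfa2l1* read 38.2, 320.3, 101.9 and 46.6 FPKM in the same libraries. *Stfa3*, which shared no window with another annotated copy, followed the same order. Its values were 21.8 FPKM in the frontal and 385.5 FPKM in the parietal bone of the wild type, and 74.8 and 31.5 FPKM in those of *Twist1*+/- mice. *Gm5483*, a copy known by its predicted-gene name, read 54.5 and 483.2 FPKM in the wild type and 126.5 and 73.1 FPKM in *Twist1*+/- mice, frontal before parietal.

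The remaining 3 members were low outside wild-type parietal bone. *2010005H15Rik* was measured at 81.7 FPKM there and at 0.585 FPKM in the frontal bone of the wild type, against 3.16 and 1.74 FPKM in the frontal and parietal libraries labelled *Twist1*+/-. *Gm5416* was measured at 26.5 FPKM in the parietal and 1.28 FPKM in the frontal bone of the wild type, and at 1.03 FPKM in the frontal and 0.637 FPKM in the parietal bone of *Twist1*+/- mice. It was the exception to the order, with wild-type frontal bone in second place. *BC117090* was the lowest member in wild-type parietal bone, at 4.02 FPKM, and read 0.708 FPKM in wild-type frontal bone and 2.21 and 0.314 FPKM in the frontal and parietal bone of *Twist1*+/- mice.

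**Figure D1:**
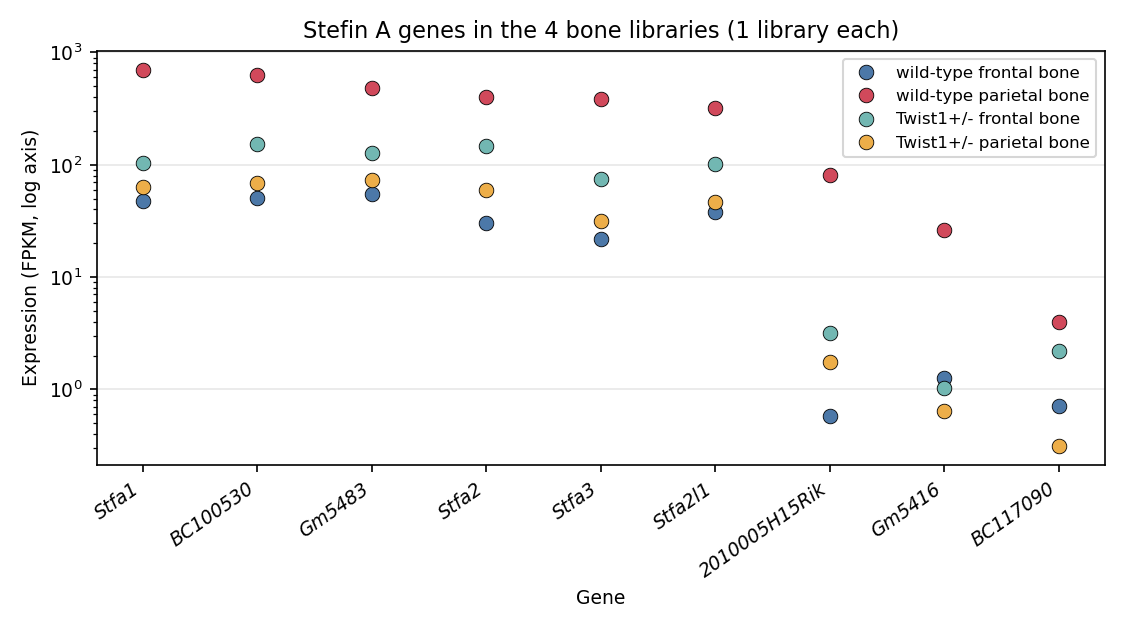
FPKM (log axis) of each of the 9 stefin A genes, with 1 point for each of the 4 libraries. The wild-type parietal point lies above the other 3 for every gene, from 1.81 times (BC117090) to 25.8 times (2010005H15Rik) the next highest library.

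The order of the libraries was nearly the same for all members. Wild-type parietal bone was highest for 9 of 9, which the choice of members fixes, as it was for 35.5% of the 14760 genes that reached 1 FPKM in a library. What the choice did not fix is the order of the other 3 libraries. *Twist1*+/- frontal bone was second highest for 8 of 9 members, and for 21.4% of the 5247 genes that were likewise highest in wild-type parietal bone. The full order of wild-type parietal, *Twist1*+/- frontal, *Twist1*+/- parietal and wild-type frontal bone was seen in 7 of 9 members and in 7.91% of those 5247 genes. *Gm5416* and *BC117090*, the lowest members in wild-type parietal bone, were the exceptions. The members are not independent, since they lie side by side and pairs of them share reads. For the 4 comparisons a gene was counted as past 3-fold only if it also had at least 1 FPKM in the library where it was higher.

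Wild-type parietal against wild-type frontal bone asks how the mesoderm-derived and the neural crest-derived bone differ. All 9 members were more than 3-fold higher in parietal bone, as were 4.07% of 14214 genes, and this comparison was part of what chose them. The ratio ran from 5.67-fold for *BC117090* to 139.7-fold for *2010005H15Rik*, which stood at only 0.585 FPKM in the frontal library. *Stfa3* differed by 17.7-fold, *Stfa1* by 14.7-fold, *Stfa2* by 13.2-fold and *BC100530* by 12.5-fold, while *Gm5483* and *Stfa2l1* differed by 8.87-fold and 8.39-fold. The summed members read 245.9 FPKM in frontal and 3039.7 FPKM in parietal bone, a ratio of 12.4-fold (3.63 on the log2 scale). They held 0.0496% of all FPKM in the frontal and 0.433% in the parietal library. In a bulk library more cells of a type and more RNA per cell cannot be told apart.

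*Twist1*+/- against wild-type parietal bone asks what the loss of a *Twist1* copy goes with in the mesoderm-derived bone. All 9 members were more than 3-fold lower in the library labelled *Twist1*+/-, as were 2.94% of 13914 genes. This comparison shares the wild-type parietal library with the one between the wild-type bones and was also part of what chose the members. *2010005H15Rik* was 46.9-fold lower and *Gm5416* 41.5-fold lower, although both were near 1 FPKM in the lower library. *BC117090* was 12.8-fold lower, but at 0.314 FPKM in the lower library, and its log2 ratio of -3.68 became -1.93 with 1 FPKM added to both values. *Stfa3* was 12.2-fold, *Stfa1* 11.1-fold and *BC100530* 9.32-fold lower. *Stfa2l1*, *Stfa2* and *Gm5483* were the least changed, at 6.87-fold, 6.75-fold and 6.61-fold lower. The sum fell from 3039.7 to 344.9 FPKM, by 8.81-fold.

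The comparison of *Twist1*+/- with wild-type frontal bone uses neither parietal library, so the wild-type parietal level does not enter it. It is not wholly free of the choice, since both frontal libraries were among those that wild-type parietal bone exceeded. A choice of that kind can favour low wild-type frontal values. The genes set beside the members needed only to be highest in wild-type parietal bone by any margin. Here 8 of 9 members were higher in *Twist1*+/- bone, as were 46.9% of the 5247 genes highest in wild-type parietal bone. Of the members 4 were more than 3-fold higher. Of all 14341 genes compared 3.17% were more than 3-fold higher, and of the 5247 genes highest in wild-type parietal bone 1.39% were. The 4 were *2010005H15Rik* (5.41-fold), *Stfa2* (4.81-fold), *Stfa3* (3.43-fold) and *BC117090* (3.13-fold), of which the first and the last lay under 1 FPKM in the wild-type library. *BC100530*, at 2.99-fold, lay just under the threshold. *Stfa2l1*, *Gm5483* and *Stfa1* were 2.67-fold, 2.32-fold and 2.17-fold higher. *Gm5416* went the other way, from 1.28 FPKM in the wild type to 1.03 FPKM in *Twist1*+/- mice. The sum was 245.9 FPKM in the wild type and 711.0 FPKM in *Twist1*+/- mice, a ratio of 2.89-fold.

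Within *Twist1*+/- mice, parietal against frontal bone gave the opposite order to that of the wild type. All 9 members were lower in the parietal than in the frontal library, which was so for 43.5% of the 5247 genes highest in wild-type parietal bone. The differences were small, with 1 member, *BC117090*, past 3-fold (7.04-fold lower, from 2.21 to 0.314 FPKM), against 3.24% of 14305 genes lower by that much. The next largest was *Stfa2*, which read 146.0 FPKM in frontal and 59.1 FPKM in parietal bone, a 2.47-fold difference. *Gm5416* differed least, by 1.62-fold. The sums were 711.0 and 344.9 FPKM, 2.06-fold apart. Other genes with 40% to 44% GC content, close to that of the members, had a median log2 ratio of -0.36 here. Subtraction of the GC trend took the log2 ratio of the sums from -1.04 to -0.63. The median difference of the members on the log2(FPKM + 1) scale was -1.11, against 3.62 between the wild-type bones, -3.20 between the parietal and 1.39 between the frontal bones, and the median over all genes lay between -0.05 and -0.01 in all 4 comparisons.

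**Figure D2:**
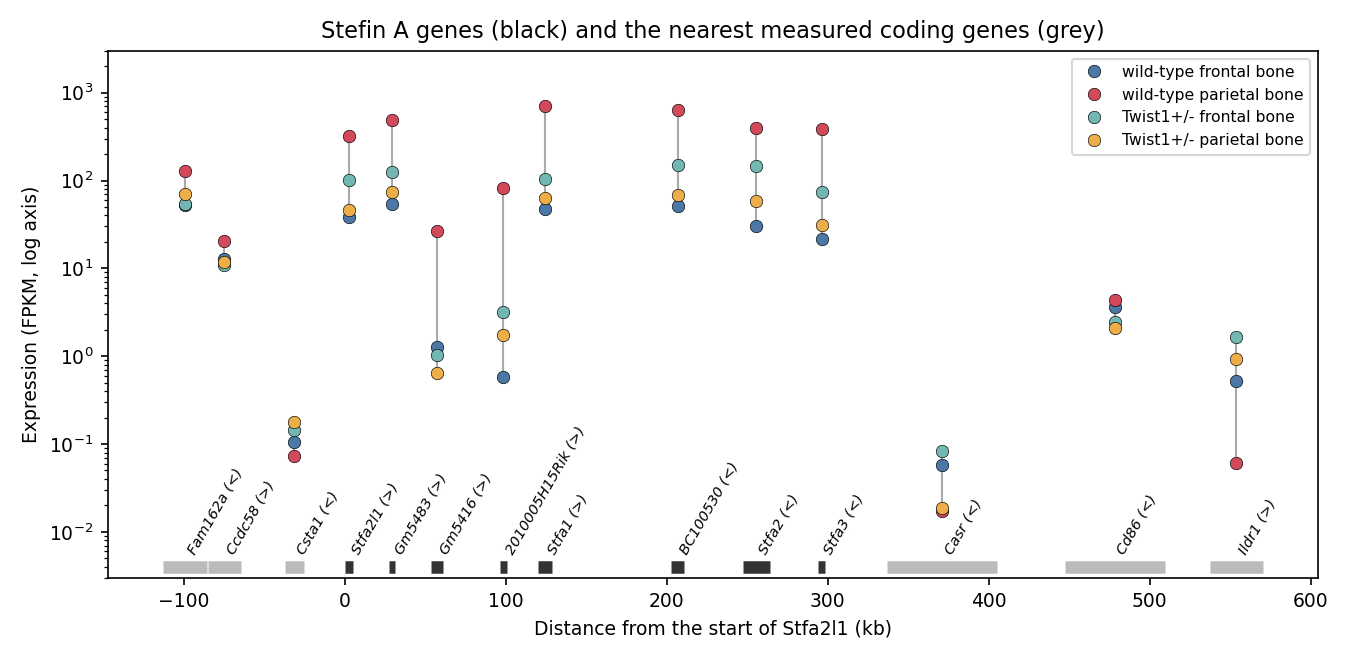
FPKM (log axis) of the 8 stefin A genes that could be placed and of the 3 nearest measured coding genes on each side, against their distance in kb from the start of Stfa2l1 on mm9; bars at the bottom are the genes, and > and < mark the strand. The rise in the wild-type parietal library spans the black genes, while the grey neighbour Csta1 stays at or under 0.178 FPKM in all 4 libraries and Fam162a ranges from 53.1 to 129.2 FPKM.

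The genes beside the cluster were not raised in wild-type parietal bone to the same extent. *Csta1*, another stefin A gene 25.6 kb before *Stfa2l1* and between 81.0% and 84.4% identical to the members in its coding sequence, was close to 0 in all libraries, at 0.105 and 0.0735 FPKM in the frontal and parietal bone of the wild type and 0.144 and 0.178 FPKM in those of *Twist1*+/- mice. On the other side *Casr*, the calcium-sensing receptor, lay 38.3 kb beyond *Stfa3* and did not exceed 0.0837 FPKM. *Fam162a* came nearest to the pattern, with 129.2 FPKM in wild-type parietal bone against 53.1 to 69.5 FPKM elsewhere. Of the 6 neighbours, none with 1 FPKM or more was past 3-fold in either of the comparisons with wild-type parietal bone, and *Ildr1* alone was between the frontal bones, from 0.522 to 1.64 FPKM. In wild-type parietal bone *Ildr1* was at 0.0608 FPKM, its lowest value.

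The bases just before the annotated starts are shown for some of the copies, because their upstream sequence is alike. *Stfa1* was the highest member in wild-type parietal bone, and *2010005H15Rik* had the largest ratios in both comparisons with that bone. *Stfa2* had the largest ratio between the frontal bones among the abundant members, and *Gm5416* had wild-type frontal bone in second place. Whether this sequence bears on the pattern of the members was not tested. Each sequence is 55 bases of the mm9 genome on the strand of the gene, 5′ to 3′. TTTAAAA, a run of letters that all 8 members share, is in capitals, and some letters before it are shared as well.
Stfa1, chr16:36277156-36277210, plus strand: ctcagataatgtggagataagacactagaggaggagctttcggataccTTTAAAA
Stfa2, chr16:36421033-36421087, minus strand: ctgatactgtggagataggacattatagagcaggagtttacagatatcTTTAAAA
2010005H15Rik, chr16:36253007-36253061, plus strand: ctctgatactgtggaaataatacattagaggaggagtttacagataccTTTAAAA
Gm5416, chr16:36210364-36210418, plus strand: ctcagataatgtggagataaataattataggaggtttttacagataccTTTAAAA
The letters TTTAAAA began at -9 in *Stfa1*, at -33 in *Stfa2*, at -48 in *2010005H15Rik* and at -77 in *Gm5416*, counted from the annotated start. In windows from 250 bases before to 50 after the start, read on both strands, 8 of 8 members held TTTAAAA, as did 7.99% of 69969 annotated windows. GAGGAGGAG was held by 6 of 8 members, all but *Stfa2* and *Gm5416*, and by 3.79% of windows. Both runs of letters were picked after the windows had been seen, and *Csta1* held neither. Among motifs of known factors, CANNTG, the E-box that Twist1 and its partners bind, was held by 7 of 8 members but also by 70.3% of all windows. TTGCNNAA, read by C/EBP factors, was held by 3 of 8 (9.49% of windows), GAGGAAGT, read by PU.1, by 1 of 8 (2.94%), and the TATA box letters TATAAA by 1 of 8 (11.2%).

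**Figure D3:**
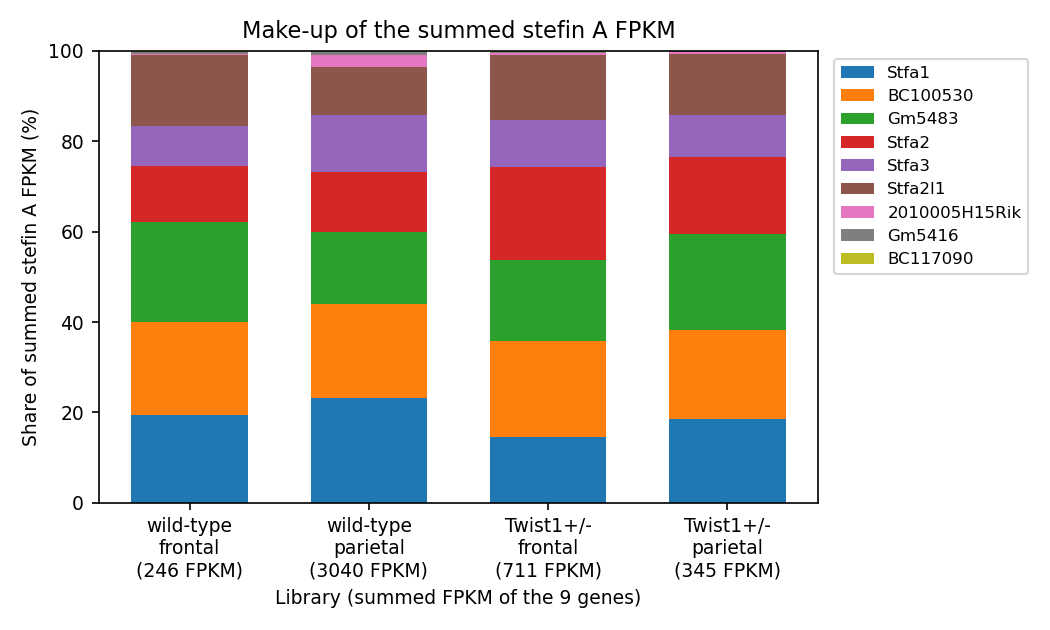
Share (%) of each member in the summed stefin A FPKM of each library, stacked to 100%, with the summed FPKM under each bar. The 6 abundant members fill between 96.3% and 99.2% of every bar, and the 2010005H15Rik band is widest in wild-type parietal bone, at 2.69%.

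The make-up of the sum shifted less than its level. The 6 members above 300 FPKM in wild-type parietal bone held between 96.3% and 99.2% of the sum in each library, and within a library the highest of them was 2.03 to 2.50 times the lowest. *BC100530* kept between 19.8% and 21.3% of the sum. *Stfa1* made up 19.4% in frontal and 23.2% in parietal bone of the wild type, and 14.6% and 18.4% in those of *Twist1*+/- mice. The share of *Stfa2* was larger in *Twist1*+/- mice, at 20.5% in frontal and 17.1% in parietal bone, than in the wild type, at 12.3% and 13.1%. *Gm5483* was the leading member in wild-type frontal bone (22.1%) and in the parietal library labelled *Twist1*+/- (21.2%), *Stfa1* in wild-type parietal bone and *BC100530* in *Twist1*+/- frontal bone. The share of *2010005H15Rik* was 2.69% in wild-type parietal bone and at most 0.505% elsewhere, and that of *Gm5416* was 0.871% there and at most 0.519% elsewhere. The share of *Gm5483*, the close copy of *2010005H15Rik*, was instead lowest in wild-type parietal bone, at 15.9%.

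Cathepsins and their relatives, among them enzymes that stefins hold in check, did not move with the inhibitors past 3-fold, with 1 exception. All 11 listed genes for cathepsins and related lysosomal cysteine proteases were measured, and none passed 3-fold between the parietal bones, between the frontal bones or within *Twist1*+/- mice, where 8.19%, 3.89% and 4.09% of all genes did in either direction. Between the wild-type bones all 11 were higher in parietal bone and *Ctsk* passed 3-fold. Between the parietal bones 8 of the 11 were lower in the library labelled *Twist1*+/- and 3 were higher, with a log2 ratio of the sums of -0.74. *Ctsk*, the collagen-degrading cathepsin of osteoclasts, read 1027 and 4782 FPKM in the frontal and parietal bone of the wild type and 1229 and 2600.5 FPKM in those of *Twist1*+/- mice. *Ctsl*, a lysosomal endopeptidase that stefin A binds tightly, read 120.0, 230.1, 124.1 and 138.6 FPKM in the same order. *Ctsh*, an aminopeptidase, read 76.8, 129.6, 64.8 and 74.4 FPKM, and *Ctss*, of antigen-presenting cells, 78.2, 98.6, 86.8 and 81.4 FPKM. These were highest in wild-type parietal bone too, but by less than 3-fold. *Ctsb* and *Ctsz*, the other abundant ones, ranged from 168.3 to 293.3 and from 115.2 to 262.4 FPKM. *Ctsc*, which activates granule proteases of myeloid cells, *Ctsf*, *Ctso*, *Ctsw* and *Lgmn* stayed between 4.52 and 139.1 FPKM.

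Other inhibitors of the cystatin family did not follow the cluster as a group. Of 17 measured, 4 reached 1 FPKM in a library, and 5 were listed at 0 in all libraries. *Cstb*, which encodes stefin B, the other cytosolic stefin, read 116.4 and 512.5 FPKM in the frontal and parietal bone of the wild type and 139.0 and 295.0 FPKM in those of *Twist1*+/- mice. Of the 4 comparisons only that between the wild-type bones took it past 3-fold, and unlike the stefin A genes it was higher in parietal than in frontal bone of both genotypes. *Cst3*, the secreted cystatin C, was highest in the parietal library labelled *Twist1*+/-, at 2464 FPKM against 1324 to 1833 FPKM elsewhere. *Cst7*, the cystatin F of leukocytes, lay between 5.51 and 8.89 FPKM and was lowest in wild-type parietal bone. *Fetub*, a liver fetuin, was also lowest there, at 1.21 FPKM against 6.13 FPKM in the frontal bone of the wild type and 25.2 and 16.6 FPKM in the frontal and parietal bone of *Twist1*+/- mice.

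Genes of the cells in which stefin A is best known went the other way from the cluster in wild-type parietal bone. The summed primary granule genes of neutrophil precursors read 540.6 and 145.0 FPKM in the frontal and parietal bone of the wild type and 593.1 and 482.0 FPKM in those of *Twist1*+/- mice. All 6 of them were lower in wild-type parietal than in wild-type frontal bone, 2 by more than 3-fold, as were 9.2% of all genes. *Mpo*, the myeloperoxidase of these granules, read 157.4 FPKM in frontal and 21.2 FPKM in parietal bone. Of 10 measured genes of the secondary and tertiary granules, 9 were lower, 5 of them past 3-fold, with *Ngp*, a granule cystatin-like protein, at 1159.5 FPKM in frontal and 338.8 FPKM in parietal bone. *Mmp9*, which osteoclasts also make, was the exception at 393.2 FPKM in frontal and 747.3 FPKM in parietal bone.

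The 14 mature neutrophil genes, *S100a8* and *S100a9* among them, summed to 12788 and 6704 FPKM in the frontal and parietal bone of the wild type and 14258 and 7945 FPKM in those of *Twist1*+/- mice. Between the wild-type bones 12 of 14 were lower in parietal bone, 2 of them past 3-fold, against 9.2% of all genes lower by that much. *S100a8*, a calcium-binding protein that fills the neutrophil cytosol, read 8034 FPKM in frontal and 4373 FPKM in parietal bone. None of the genes of the 3 neutrophil lists was listed at 0 in all libraries. For each 100 FPKM of the mature neutrophil genes the cluster therefore stood at 1.92 and 45.3 FPKM in the frontal and parietal bone of the wild type and at 4.99 and 4.34 FPKM in those of *Twist1*+/- mice. Between the frontal bones, all 14 were higher in *Twist1*+/- bone but none past 3-fold, against 3.17% of all genes higher by that much. The median of the 14 was 0.34 on the log2(FPKM + 1) scale, against 1.39 for the members. The wild-type parietal level that enters these values is the one that chose the members, and the part of neutrophil content in the level of the cluster was not tested.

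Several other lists had their highest sum in wild-type parietal bone, beside the cluster. Skeletal muscle genes, which mark attached muscle, summed to 106.1 and 2962 FPKM in the frontal and parietal bone of the wild type and 1195 and 1582 FPKM in those of *Twist1*+/- mice. They were more than 3-fold higher in 9 of 9 compared between the wild-type bones and in 10 of 10 between the frontal bones, the comparison in which 4 of 9 stefin A genes were. Of all genes 4.07% were more than 3-fold higher between the wild-type bones and 3.17% between the frontal bones. Between the parietal bones the log2 ratio of the muscle sums was -0.90, against -3.14 for the cluster. Mast cell and basophil genes summed to 41.1, 138.5, 61.9 and 78.5 FPKM in the same order of libraries. Of 9 compared between the wild-type bones, 5 were higher in parietal bone, all past 3-fold, and 4 were lower, 1 of them past 3-fold. Osteoclast genes summed to 1239, 3727, 1530 and 3202 FPKM in the same order, with 5 of 8 past 3-fold between the wild-type bones and none between the parietal bones. Monocyte and macrophage genes differed less in sum, at 595.1, 887.1, 584.6 and 720.3 FPKM. Of these 12 genes, 9 were higher in parietal than in frontal bone of the wild type, and 3, *Ly6c2*, *Ccr2* and *Mpeg1*, were lower. The part of these tissues and cells in the result for the cluster was not tested.

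Epidermis, the other tissue of stefin A, was near absent from wild-type bone. Its 11 measured genes summed to 3.59 and 3.41 FPKM in the frontal and parietal bone of the wild type and 9.07 and 12.4 FPKM in those of *Twist1*+/- mice, and *Dsg1a* was listed at 0 throughout. Erythroid genes were highest in wild-type frontal bone, at 1595 FPKM against 762.9 to 826.3 FPKM elsewhere. Osteoblast genes, which mark the labelled tissue, were abundant everywhere, between 17409 and 25321 FPKM.

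**Figure D4:**
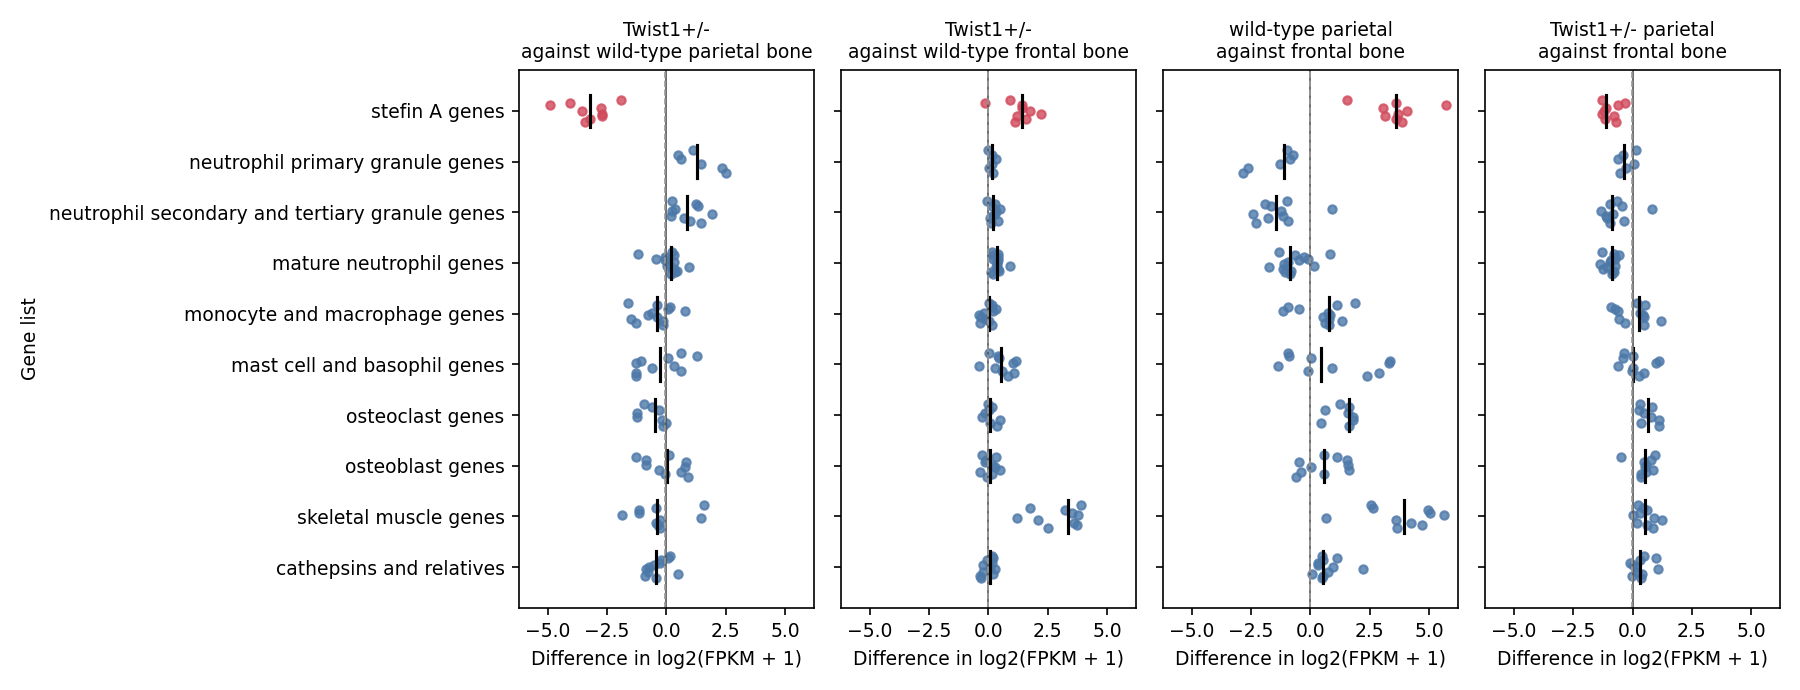
Difference in log2(FPKM + 1) of each gene of the stefin A cluster (red) and of 9 gene lists (blue) in the 4 comparisons, with black bars at the medians and a dotted line at the median of all genes. In wild-type parietal against frontal bone the stefin A median is 3.62, while the medians of the 3 neutrophil lists lie between -1.44 and -0.85.

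Short transcripts as a class read higher in wild-type parietal bone, and the stefin A transcripts are short, at 294 to 619 bases, with a GC content of 39.1% to 43.3% against a median of 49.6% over all coding genes. The median log2 ratio between the wild-type bones was 1.15 for other transcripts of 300 to 500 bases and -0.31 for those over 5000 bases. Of 174 genes in the length range of the members, 13.8% were more than 3-fold higher in parietal bone and 12.1% more than 3-fold lower, while the 8 members of known length were all higher by more than that. Other genes of low GC content as a class read lower in the parietal library labelled *Twist1*+/- than in that of the wild type. The median log2 ratio there was -0.59 at 40% to 44% GC and 0.70 above 60%. The median for genes near in length and GC content was subtracted, an alternative chosen after the length trend had been seen. The 8 members with an annotated transcript stayed past 3-fold in both comparisons with wild-type parietal bone. *BC117090* has no length here and could not be corrected. The ratio of the sums between the wild-type bones, with *BC117090* left as it was, then went from 3.63 to 2.76 on the log2 scale, and that between the parietal bones from -3.14 to -2.60.

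**Figure D5:**
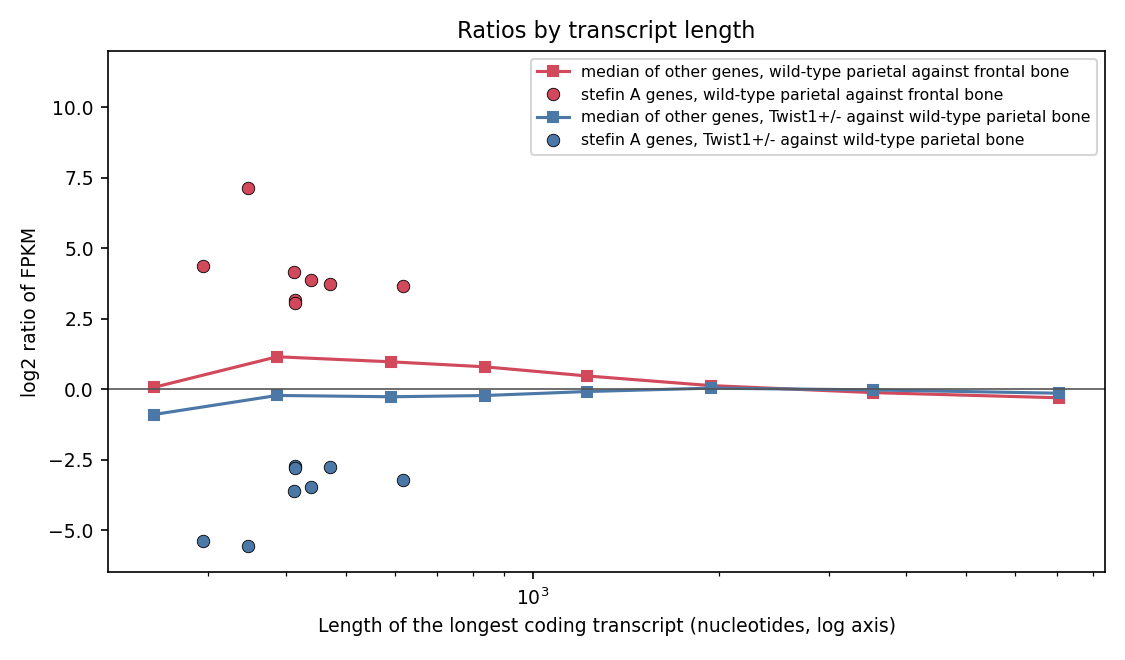
log2 ratio of FPKM against transcript length (log axis, in nucleotides) for the 8 stefin A genes with an annotated transcript (circles) and as medians of other genes in bins of length (squares). Between the wild-type bones (red) the medians fall from 1.15 at 300 to 500 nucleotides to -0.31 above 5000, and the members lie at 3.07 to 7.13.

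The genes whose pattern over the 4 libraries was most like that of the summed members, among 7865 candidates, were *Actc1*, *Mia*, *Ccl12*, *Lect1* and *Nrep*. Likeness was measured as the root mean square difference between centred log2(FPKM + 1) values, which was 0.38 for *Actc1*, a cardiac and fetal muscle actin, and 0.42 for *Mia*, a secreted cartilage protein. It was 0.45 for *Ccl12*, a monocyte chemokine, 0.52 for *Lect1*, a cartilage glycoprotein, and 0.54 for *Nrep*. *Actc1* read 0.225 and 21.7 FPKM in the frontal and parietal bone of the wild type and 1.53 and 0.828 FPKM in those of *Twist1*+/- mice. The members' own distances from their sum ran from 0.04 for *BC100530* to 0.89 for *2010005H15Rik*, and 3 members, *2010005H15Rik*, *BC117090* (0.75) and *Gm5416* (0.71), were less like the sum than these 5 genes were. A measure over 4 libraries orders genes only coarsely, and the wild-type parietal level that chose the members enters it. Adding 1 FPKM also compresses low values, such as those of *Actc1* outside wild-type parietal bone.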

How the data were processed

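The deposited values are FPKM per gene symbol and library, and genotype and bone of each library were taken per the labels. The authors captured poly(A) RNA in stranded libraries, sequenced single-end reads of 75 bases, aligned them to mm9 with STAR 2.4.2a and quantified iGenomes genes with Cuffdiff (Cufflinks 2.2.1), tools that the submitters' processing notes also name. The library scaling option and the handling of reads that map to several places are not given in the sources used here. The depth of each library is unknown from FPKM, so no interval or floor is given.

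From these values ratios of FPKM were formed in Python 3.11.15 (pandas 2.3.3, numpy 2.4.6), with a change counted past 3-fold where the higher library reached 1 FPKM. With 1 library per group no test was run. Positions, transcripts and sequences came from GENCODE M1 and the mm9 genome, coding sequences were aligned with MAFFT 7.526, and sequences were handled with Biopython 1.88. The genes named are all members, the 3 highest genes of each list as far as described, cathepsins and cystatins at or above 1 FPKM, the 3 measured coding genes on each side of the cluster, the 5 most alike genes and *Twist1*. The members and lists were chosen with earlier results of these data known. *Ly6g*, *Chi3l3*, *Flg*, *Ahsp* and *Hbb-b2* matched no gene symbol, and *Csta* is an older name of *Csta1*. The alternatives added 1 or 0.1 FPKM to every value, dropped the floor or raised it to 10 FPKM, or used genes above 0 only, an 8-fold threshold, scaling to the median ratio or to *Gapdh*, subtraction of the GC or length trend (20 groups by GC content, or the 100 nearest genes by length), and other ways of summing the members. The 3-fold count and the length correction were tested on simulated data, and the other procedures were not.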

Additional observations from a re-analysis of the deposited data

Results flagged for a closer look

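For 8 of the 9 stefin A genes and for their sum, *Twist1*+/- differed from wild type in opposite directions in the parietal and the frontal bone, lower in the former and higher in the latter. With 1 library per group the difference between the bones was not tested, and the parietal side of it was part of what chose the genes. The log2 ratio of *Twist1*+/- to wild type in parietal minus that in frontal bone was -4.58 for *Stfa1*, -5.02 for *Stfa2*, -5.39 for *Stfa3* and -4.20 for *Stfa2l1*. It was -4.80 for *BC100530*, -5.32 for *BC117090*, -3.94 for *Gm5483* and -7.99 for *2010005H15Rik*, and -4.67 for the sum. Of the 14542 genes above 0 in all libraries and at or above 1 FPKM in at least 1, 21.3% moved in these directions. For the members the choice fixed the parietal direction, so only the frontal direction was not fixed by it. Of the 5247 genes likewise highest in wild-type parietal bone, 46.9% were higher in *Twist1*+/- than in wild-type frontal bone. *Gm5416* was lower in *Twist1*+/- bone on both sides.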

How the results depend on the processing

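No paired analysis was possible because each genotype and bone has 1 library. No result changed direction under any alternative run. In both comparisons with wild-type parietal bone the counts of members past 3-fold stayed within 1.5 times of 9, with *BC117090*, which has no length or GC value, left uncorrected where a trend was subtracted. Of 63 values of single members in each comparison, 3 of them such uncorrected repeats, 63 kept their side of the threshold between the parietal bones and 62 between the wild-type bones. Between the frontal bones 56 did, 4 fell below it and 3 rose past it, and within *Twist1*+/- mice 58 did, 1 fell below and 4 rose past. Scaling to *Gapdh* moved every log2 ratio by 0.39 between the parietal and by -0.44 between the wild-type bones, and by -0.10 between the frontal bones. Between the frontal bones the count of 4 fell to 2 with a pseudocount of 1 FPKM or a floor of 10 FPKM and to 0 at 8-fold, and the log2 ratio of the sums, 1.53, passed 3-fold as 1.59 with the GC trend subtracted and as 1.62 without *Stfa1*. Within *Twist1*+/- mice the count of 1 became 0 with a pseudocount of 1 FPKM, a floor of 10 FPKM or at 8-fold. It became 5, and the log2 ratio of the sums -1.59 in place of -1.04, with the length trend alone subtracted, an alternative chosen after seeing the data. With the GC trend subtracted, as planned, the log2 ratio of the sums shrank to -0.63 and the count stayed at 1. A pseudocount compresses low values and a floor or a higher threshold drops them by construction. For the other shifts the cause was not tested.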
